A study of Mus musculus with 6 samples.

Results

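A set of 447 exonic circRNAs of the mouse lacrimal gland carried an identifier of circBase, a public collection of circRNAs from earlier sequencing studies. They were taken from the 2541 circRNAs of the deposited table as the rows classed exonic whose source was circBase. The other rows were 1061 exonic circRNAs attributed to earlier published lists, 521 exonic circRNAs in no list and 512 circRNAs of other classes. Lacrimal glands of C57BL/6 mice aged 6 months were sequenced as total RNA after removal of ribosomal RNA, with 3 AQP5+/+ (wild type) and 3 AQP5-/- libraries. The AQP5-/- mice were made with CRISPR/Cas9 and lack aquaporin 5, the water channel in the apical membrane of lacrimal acinar cells, and both groups share the strain and the age. The study's figure legends count the profiles of each genotype as those of as many mice as there are libraries. The labels give neither the sex nor the animal behind a library, and each p-value of a genotype comparison rests on how much the libraries of a genotype differ.

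An exonic circRNA forms when the splice donor at the end of an exon is joined back to the acceptor of the same exon or of an exon upstream, which closes the RNA into a loop without a cap or a poly(A) tail. The loop is resistant to exonucleases and can accumulate in tissues whose cells divide slowly, while the linear mRNA of the same gene, its host, turns over faster. Only reads that cross the back-splice junction tell the circle from the linear transcript, so a junction read is the unit counted here. Some circles have been assigned functions as sponges for miRNAs or proteins, but for most circRNAs no function is known.

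The acceptor that opens a circle could be read for 7 of the 447 circRNAs, because it lay inside a RefSeq window around a transcription start (GRCm38.p6). The 30 bases below run 5′ to 3′ on the host strand and hold 20 bases of intron and the first 10 bases of the circle, with the last 2 intron bases in capitals.
Arhgap5 circle, chr12:52516059-52516088, plus strand: gttttttttcccctttctAGgaagatgatc
Rreb1 circle, chr13:37888851-37888880, plus strand: atcttcttttaatttttcAGgttgttgcaa
Chd9 circle, chr8:90932229-90932258, plus strand: ttttgttgttattttcctAGgattctgatg
Rbm4 circle, chr19:4794000-4794029, minus strand: acctcttcctggcctctcAGgtaattggcg
Ctbp2 circle, chr7:133081851-133081880, minus strand: tccatccattgcatttgcAGggcttcatca
Usp15 circle, chr10:123181791-123181820, minus strand: cagcgtcttgtcttttttAGgtatctagta
Ccser2 circle, chr14:36941255-36941284, minus strand: taatctttttcttccctcAGattctgtcaa
They are shown because they place the deposited junctions on the genome: all 7 began right after an AG, the dinucleotide that ends nearly every spliced intron. Of the 18 bases before the AG, 13 to 17 were C or T, the pyrimidine tract of an acceptor. An AG also stood before the 9 further acceptors that could be read among the other exonic circRNAs, and both of their readable donors were followed by GT. The acceptors of Arhgap5, Rreb1, Chd9, Rbm4 and Ccser2 were used by other exonic circRNAs as well. These 7 circles ranged from 142 reads (Arhgap5) to 3 reads (Usp15 and Ccser2) over the 6 libraries. At Rbm4 the other one, in no list, had 73 reads against 10 for the circBase circle.

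Every library had few junction reads, from 2032 to 2953 over all circRNAs, so most values below are small counts. Aqp5 mRNA was at 154, 89.0 and 142 FPKM (fragments per kilobase of transcript, scaled to the mapped fragments of a library) in the AQP5+/+ libraries and at 0.378, 0.177 and 0.170 in the AQP5-/- libraries. Of the 8 acinar markers, Bhlha15, a transcription factor of secretory cells, was at 126 to 192 FPKM, the lipocalin Lcn11 at 969 to 3136 and Pigr, which carries antibodies into tears, at 122 to 556 in the 6 libraries. The secretoglobins Scgb2b2 and Scgb1b2 were listed at 0 in 3 and 4 libraries and at 113451 FPKM or more in the others, Prol1 was at most 1.11 FPKM, and Mucl2 was not matched. The 4 Y-linked mRNAs Ddx3y, Uty, Kdm5d and Eif2s3y summed to 33.0 FPKM in AQP5+/+ library 2 and to 49.7 to 58.0 in the AQP5-/- libraries, but to 0.320 and 0.185 in AQP5+/+ libraries 1 and 3. Genotype is therefore in part confounded with this split, and only AQP5+/+ library 2 is on the side of the AQP5-/- libraries in it. Ddx3y, Uty and Kdm5d in that library were close to the AQP5-/- values, but Eif2s3y was at 2.04 FPKM against 17.8 to 28.0. AQP5+/+ library 2 alone held skeletal muscle mRNAs, with a sum over Acta1, Ckm, Myh4 and Tnnt3 of 42.3 FPKM, and none of them was above 0.745 FPKM elsewhere. The 5 immune markers found in the table, of 7 listed, summed to 42.3 to 87.2 FPKM in AQP5+/+ and 90.4 to 187 in AQP5-/- libraries. Lyz2 of macrophages made up most of each sum, at 31.6 to 69.1 against 70.2 to 157 FPKM. Ptprc, Cd68 and Cd79a overlapped between the genotypes, while Cd3e, at most 1.83 FPKM, did not. The part of these splits in the circRNA results was not tested beyond a fit with a term for Y-linked mRNA, given below. In that fit the genotype difference is the 3 AQP5-/- libraries against AQP5+/+ library 2 alone, so it has 1 library in an arm and its spread is borrowed from the others. In bulk tissue, fewer cells of a type and less RNA per cell cannot be told apart.

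The circBase circRNAs made up 17.6% of the circRNAs and 39.5% of the junction reads, 5661 of 14332. They had more reads per circRNA than the other exonic circRNAs in every library. The mean was 2.11 ± 0.423 reads per circRNA and library (SD over 6 libraries), against 0.801 ± 0.121 for the earlier published lists and 0.599 ± 0.0710 for exonic circRNAs in no list. The ratio to the earlier lists was between 2.23 and 3.02 in the 6 libraries, and that to the unlisted ones between 2.72 and 4.84. Among circRNAs with reads in at least 2 libraries the mean ratio to the unlisted ones was 1.53 in place of 3.57, and that to the earlier lists 2.03 in place of 2.64. Both differences had an exact paired permutation p of 0.03125 (two-sided, n = 6 libraries), the smallest that 6 pairs can give, with an adjusted p of 0.03125 over the 2 comparisons. The same circRNAs are read in every library, so this p rests on the spread over libraries and not on that among circRNAs. Listing also went with recurrence: 57.5% of the circBase circRNAs had reads in at least 3 libraries, against 20.9% for the earlier lists and 7.10% for the unlisted ones. Reads in all 6 libraries were found for 66 of them. At the other end, 107 were seen in 1 library and 68 had 2 reads in all.

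**Figure D1:**
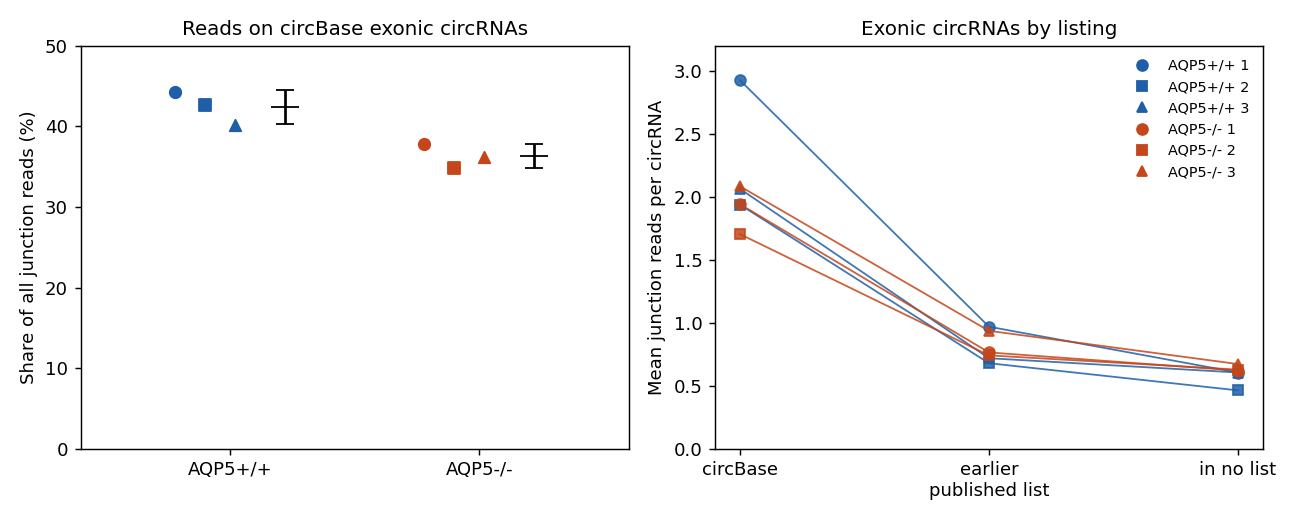
Left, the percent of each library's junction reads on circBase exonic circRNAs, with the mean ± SD of the 3 libraries per genotype in black; right, mean junction reads per circRNA in each library (1 line each) for the 3 listing classes of exonic circRNAs. The share was 42.4% in AQP5+/+ and 36.3% in AQP5-/- without overlap, and all 6 lines fall from circBase to the other classes.

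The identifiers themselves divided the set. The 390 circRNAs with circBase numbers up to 1898 held 5403 of the 5661 reads (95.4%), and 62.1% of them had reads in at least 3 libraries. The 57 with numbers from 2331 to 15698 held 258 reads, 26.3% of them were in at least 3 libraries, and their highest total was 18 reads. The median totals were 7 and 3 reads. No circRNA of the set was on the Y chromosome, 5 were on the X, and chromosome 2 had most, with 41.

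In predicted length the circRNAs ran from 82 to 7091 nucleotides, with a median of 534, near the medians of the earlier lists (562) and the unlisted circRNAs (649). The shortest were circles of Ube2g2, an E2 enzyme of endoplasmic reticulum associated degradation (82 nucleotides, 5 reads), and Ubl5, a ubiquitin-like protein (122 nucleotides, 2 reads). The longest were those of Kmt2c, a histone H3 methyltransferase (7091 nucleotides), and the transcriptional coregulator Tcf20 (5866 nucleotides). The Kmt2c circle had 0, 1 and 0 reads against 7, 1 and 1 (AQP5+/+ against AQP5-/-), so 1 library held most of it. Its log2 fold change was 2.79, not past the threshold, and 3.25 and 3.26 without AQP5-/- library 2 or 3, which passed it (edgeR, adjusted p = 0.899, 0.653 and 0.496). For 46 circRNAs (10.3%) the predicted length equalled the genomic span, so the circle is 1 uninterrupted block, against 4.81% and 3.65% in the other exonic classes. Among them are the circles of Zfp609, Arhgap5, Nfix and Setbp1, which are 4 of the 5 with most reads. The acceptor lay at a median of 37.5% of the gene from its start, against 43.5% and 47.0%, and these positions were not compared by a test.

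The circles came from 353 host genes, 288 with a single circBase circle and 65 with more. An acceptor was shared by 90 of the 447 (20.1%) and a donor by 24 (5.37%); in the earlier lists these shares were 16.2% and 10.1%. Of the host genes, 176 also gave circRNAs outside the set, 356 in all. In 141 of these 176 the circRNA with most reads, ties included, was a circBase one.

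The 12 circles with most reads held 1328 of the 5661 reads (23.5%) and each was read in all 6 libraries. The circle of Zfp609, a zinc finger protein whose circle has been studied in myoblasts, led with 37, 19 and 38 junction reads in the AQP5+/+ libraries against 16, 31 and 19 in the AQP5-/- ones. The second, a 350-nucleotide circle of Tasp1, the protease taspase 1, had 29, 19 and 21 against 34, 27 and 22. Arhgap5 had 28, 18 and 39 against 12, 23 and 22. In each of these 3 the genotypes overlapped, and the log2 fold changes of -0.49, 0.30 and -0.58 did not pass the test described below. Setbp1, which binds the SET protein, had 36, 17 and 14 against 12, 16 and 25, and Mettl9, a histidine methyltransferase, had 21, 19 and 14 against 30, 13 and 11. Stk39, the kinase SPAK that activates the Na-K-Cl cotransporter of secretory epithelia, had 21, 19 and 13 against 16, 14 and 25, with a log2 fold change of 0.07 ± 0.49 (SE). Its groups overlapped, as did those of Zfp148, a zinc finger transcription factor, with 17, 11 and 24 against 14, 9 and 10. Dtnb, dystrobrevin beta, had 21, 17 and 6 against 5, 6 and 20, so 1 library of each genotype went with the other group. Usp3, a histone deubiquitinase, had 14, 6 and 13 against 11, 14 and 7, one of the smallest changes in the set (log2 fold change -0.01 ± 0.58), together with Ncoa2, a nuclear receptor coactivator, at 0.01 ± 0.74. The remaining 3 of the 12, Nfix, Unc13b and a longer Tasp1 circle, were lower in AQP5-/- and are taken up next.

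**Figure D2:**
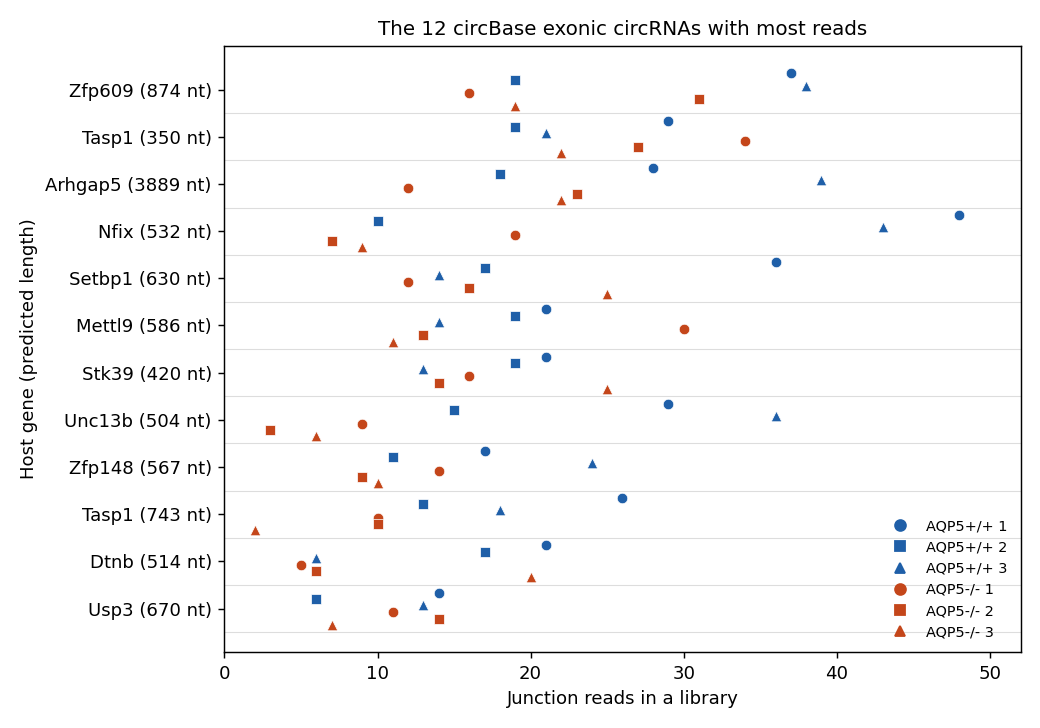
Junction reads of the 12 circBase exonic circRNAs with most reads, 1 row per circle with its host gene and predicted length, and 1 symbol per library (blue, AQP5+/+; orange, AQP5-/-). Unc13b and the 743-nucleotide Tasp1 circle show no overlap between the genotypes, while Nfix is high in 2 AQP5+/+ libraries only.

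Whether the loss of AQP5 went with a change of single circles was tested with edgeR's quasi-likelihood test on all circRNAs with reads in at least 3 libraries, 552 in all and 257 of the set. A circle was called at an unadjusted p under 0.05 together with a fold of at least 2. In the set 1 circle was higher in AQP5-/-, where 2.36% of all circRNAs tested were called higher (13 of 552), and 19 were lower, where 6.7% were (37 of 552). The 19 are 7.39% of the 257, near the background. The median log2 fold change was -0.18 in the set and -0.18 over all circRNAs tested, and 58.0% and 56.3% were below 0. At a Benjamini-Hochberg adjusted p under 0.05 no circle of the set passed with edgeR, exactTest or DESeq2, while 20 had an unadjusted p under 0.05 with edgeR. Of the 19 lower circles, 11 had no read in AQP5-/- and passed the filter only through the AQP5+/+ libraries, so they had to differ, and all 11 circles with reads in every AQP5+/+ and no AQP5-/- library were called. No circle of the set had the reverse pattern. Reads in every AQP5+/+ and no AQP5-/- library were also found for 12 of 222 circRNAs tested in the earlier lists. They were found for 1 of 37 in no list and 3 of 36 of other classes, and the reverse for 7, 0 and 1. When an AQP5+/+ library is left out, the 11 circles without an AQP5-/- read fall short of 3 libraries and are not tested. Part of the fall in calls there is therefore fixed by the filter. The count of lower circles was 4, 8 and 5 without AQP5+/+ library 1, 2 and 3, and 12 without AQP5-/- library 2. With the term for Y-linked mRNA, against AQP5+/+ library 2 alone, it was 4. The scaled reads of 32 of the 257 did not overlap between the genotypes, where 12.7% of all circRNAs tested did not.

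**Figure D3:**
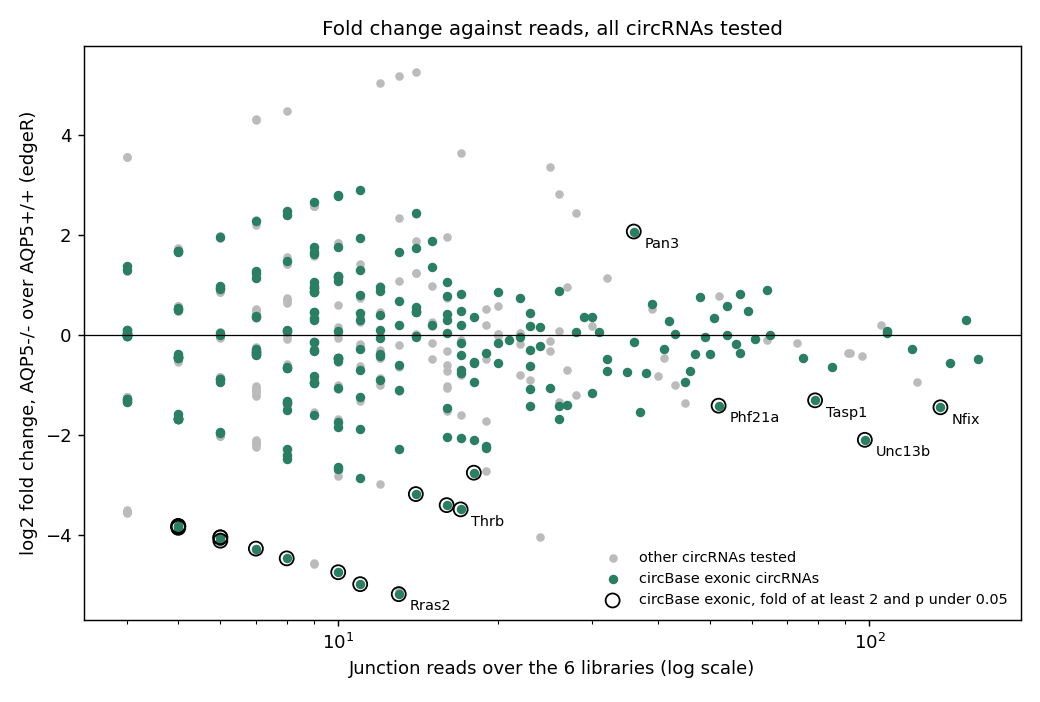
Log2 fold change (AQP5-/- over AQP5+/+, edgeR) against total junction reads (log axis) for the 552 circRNAs tested, with the 257 circBase exonic ones in green and their 20 calls circled. The calls with under 10 reads lie on the lower edge formed by circles without an AQP5-/- read, and the log2 fold changes there depend on the prior count.

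Unc13b had the smallest p. Its gene encodes Munc13-2, a protein that primes vesicles for exocytosis, and the 504-nucleotide circle lies at chr4:43087903-43115160 on the plus strand (mm10). The AQP5+/+ libraries gave 29, 15 and 36 reads and the AQP5-/- libraries 9, 3 and 6, so every AQP5+/+ library was above every AQP5-/- library. The log2 fold change was -2.10 ± 0.54 (SE; edgeR, adjusted p = 0.0513), and the reads were 4.38-fold higher in AQP5+/+ with a 95% counting interval of 2.60 to 7.77. Such intervals cover counting error only, since reads without molecular identifiers are not independent molecules. The call was kept without each library in turn, at log2 fold changes from -2.61 to -1.73, while the adjusted p ran from 0.0314 to 0.999 over all alternatives. With a term for Y-linked mRNA it was -1.42 (edgeR, adjusted p = 0.892), which ended the call. The Unc13b mRNA was at 88.2, 47.2 and 74.8 against 45.0, 50.8 and 38.5 FPKM, with AQP5+/+ library 2 among the AQP5-/- libraries. Such values are for the whole gene and can include reads from inside its circles. Other Unc13b circles that open at the same acceptor, from the earlier lists, were tested and not called. Their log2 fold changes were -0.46 (41 reads) and -0.50 (5 reads), so the call holds for the 504-nucleotide circle only.

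Nfix, a transcription factor of the nuclear factor I family, gave a circle of 532 nucleotides from 1 block at chr8:84771784-84772315 on the minus strand. The AQP5+/+ libraries gave 48, 10 and 43 reads and the AQP5-/- libraries 19, 7 and 9. AQP5+/+ libraries 1 and 3 stood above the other 4, and library 2 lay within the AQP5-/- range. The log2 fold change was -1.45 ± 0.47 (edgeR, adjusted p = 0.371), and the call was kept without each library in turn, at -2.11 without AQP5-/- library 1. The reads thus followed the split of the Y-linked mRNAs, and against AQP5+/+ library 2 alone, in the fit with that term, the log2 fold change was 0.11. Its mRNA was at 96.1, 47.0 and 68.3 against 42.0, 38.4 and 36.1 FPKM, again highest in AQP5+/+ libraries 1 and 3. Thrb, the thyroid hormone receptor beta, showed the same split, with 9, 0 and 7 reads against 1, 0 and 0. Its log2 fold change was -3.50 ± 1.42 (edgeR, adjusted p = 0.489), and AQP5+/+ library 2 had no read to compare with the AQP5-/- libraries. A Thrb circle of the earlier lists, with 19 reads, had a log2 fold change of 0.52 and was not called. For the other 17 lower circles AQP5+/+ library 2 stood above all 3 AQP5-/- libraries after scaling. For 11 of them this was fixed in advance, since every AQP5+/+ library and no AQP5-/- library had reads. The rest were called lower from the same libraries, which favours this order, so it is no separate evidence. For Maml3 and Aagab library 2 had as many raw reads as an AQP5-/- library, and only the scaling set them apart.

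The only higher circle was that of Pan3, a subunit of the PAN2-PAN3 deadenylase that shortens poly(A) tails, 260 nucleotides long at chr5:147450653-147455188 on the plus strand. Its reads numbered 5, 2 and 0 against 11, 10 and 8, without overlap. The log2 fold change was 2.06 ± 0.83 (edgeR, adjusted p = 0.489), a ratio of 4.20 with a counting interval of 1.80 to 11.4, and the call was lost without AQP5+/+ library 3, at a log2 fold change of 1.54. Without AQP5+/+ library 1 it was 3.04. The mRNA was at 30.8, 25.2 and 35.4 against 25.1, 21.6 and 19.7 FPKM, with a log2 fold change of -0.45 that did not pass the fold threshold.

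Tasp1 held 5 circles of the set, the most of any host, and all 5 open at the same acceptor, chr2:140057499 on the minus strand, and close at different donors. They measure 350, 471, 556, 636 and 743 nucleotides and had 152, 17, 10, 14 and 79 reads, so the shortest and the longest took most. The longest gave 26, 13 and 18 against 10, 10 and 2 reads, without overlap, and a log2 fold change of -1.31 ± 0.55 (edgeR, adjusted p = 0.489). That call was lost without AQP5+/+ library 1 (-1.16) or AQP5-/- library 3 (-0.77). The shortest had a log2 fold change of 0.30 ± 0.44 (edgeR, adjusted p = 0.974). Of the reads on these 2 circles, the longest held 47.3% (exact 95% interval 33.7 to 61.2), 40.6% (23.7 to 59.4) and 46.2% (30.1 to 62.8) in AQP5+/+ libraries. In AQP5-/- libraries it held 22.7% (11.5 to 37.8), 27.0% (13.8 to 44.1) and 8.33% (1.03 to 27.0). The means were 44.7 ± 3.56% and 19.4 ± 9.79% (SD, n = 3 libraries each) without overlap, with an exact permutation p of 0.1 (two-sided), the smallest that 3 against 3 can give. This pair was chosen after its values were seen. Taspase 1 mRNA had a log2 fold change of -0.12 (limma, adjusted p = 0.718).

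**Figure D4:**
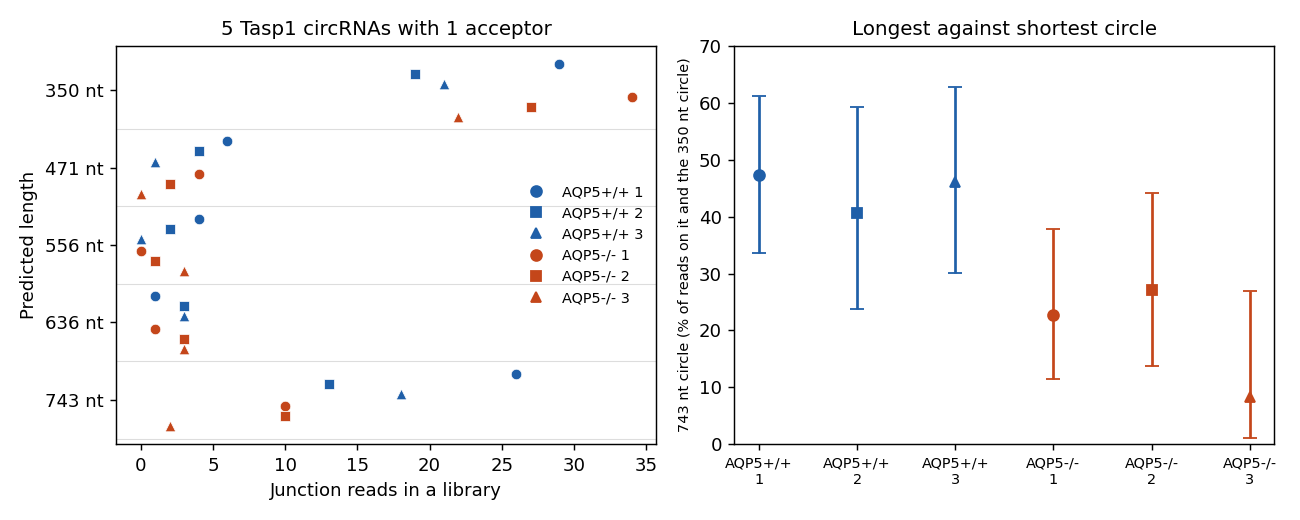
Left, junction reads in each library for the 5 Tasp1 circles that open at 1 acceptor, by predicted length; right, the 743-nucleotide circle as a percent of the reads on it and the 350-nucleotide circle, with exact 95% binomial intervals for counting error. The 3 AQP5+/+ libraries sit at 40.6% to 47.3% and the 3 AQP5-/- libraries at 8.33% to 27.0%.

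Phf21a, a reader of unmethylated histone H3 in the LSD1 complex, had 11, 19 and 8 reads against 6, 4 and 4, without overlap (log2 fold change -1.42 ± 0.66, edgeR, adjusted p = 0.489). Here AQP5+/+ library 2 was the highest, and the call was lost without it (-0.92) and without AQP5-/- library 2 (-1.27) or 3 (-1.22). Man2a1, the Golgi mannosidase II of N-glycan processing, had 9, 3 and 3 reads against 0, 0 and 1. Maml3, a coactivator of Notch, had 7, 2 and 7 against 0, 2 and 0, and Aagab, which helps assemble clathrin adaptors, had 8, 1 and 4 against 1, 0 and 0. These 3 rest on 1 or 2 AQP5-/- reads, and their folds are bounded only loosely, from 1.85 to 70.7 for Maml3. The Man2a1 call was lost without AQP5+/+ library 1 (log2 fold change -2.85), and the Maml3 call was lost without AQP5+/+ library 1 or 3 or AQP5-/- library 1 or 3, at -2.66 to -2.14. Further Man2a1 circles were tested and not called, at log2 fold changes of -0.89 and -0.01 in the set and 2.29 and -0.10 in the earlier lists.

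For the 11 circles without an AQP5-/- read the fold is given against a floor of 3 reads over the 3 AQP5-/- libraries. These folds leave out the counting error of the AQP5+/+ reads, so they are not lower limits. Rras2, a Ras-related GTPase, had 3, 7 and 3 AQP5+/+ reads and was 4.27-fold above the floor. Pspc1, a paraspeckle protein, had 1, 5 and 5 (3.61-fold), and Gab1, an adaptor of receptor tyrosine kinases, had 5, 4 and 1 (3.29-fold). Kansl1l had 3, 3 and 2 reads (2.63-fold), and Ddx17, an RNA helicase, had 3, 3 and 1 (2.30-fold). Rsrc1, a splicing factor, and Hlcs, the enzyme that attaches biotin to carboxylases, had 3, 2 and 1 reads each. Paip2, a translational repressor that binds the poly(A)-binding protein, had 1, 2 and 3, and all 3 circles were 1.97-fold above the floor. Nav3, Fam188a and the Mediator kinase Cdk8 had 5 reads each (1.64-fold), and the counting interval of their ratio included no change. For the 7 circles from Ddx17 on, the call was lost or could not be fitted without each library in turn, and that of Kansl1l was kept without AQP5-/- library 2. These are at the limit of what the depth shows, since with 3 AQP5+/+ libraries read at this depth 5 reads were enough for a call. Other circles of these hosts were tested too. A Kansl1l circle of the earlier lists, with 9 reads, was also called lower (log2 fold change -4.56). A Kansl1l circle of the set with 10 reads (1.17) was not called. Nor were a Cdk8 circle of the set with 12 reads (0.39) and a Ddx17 circle of the earlier lists with 12 reads (0.45).

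**Figure D5:**
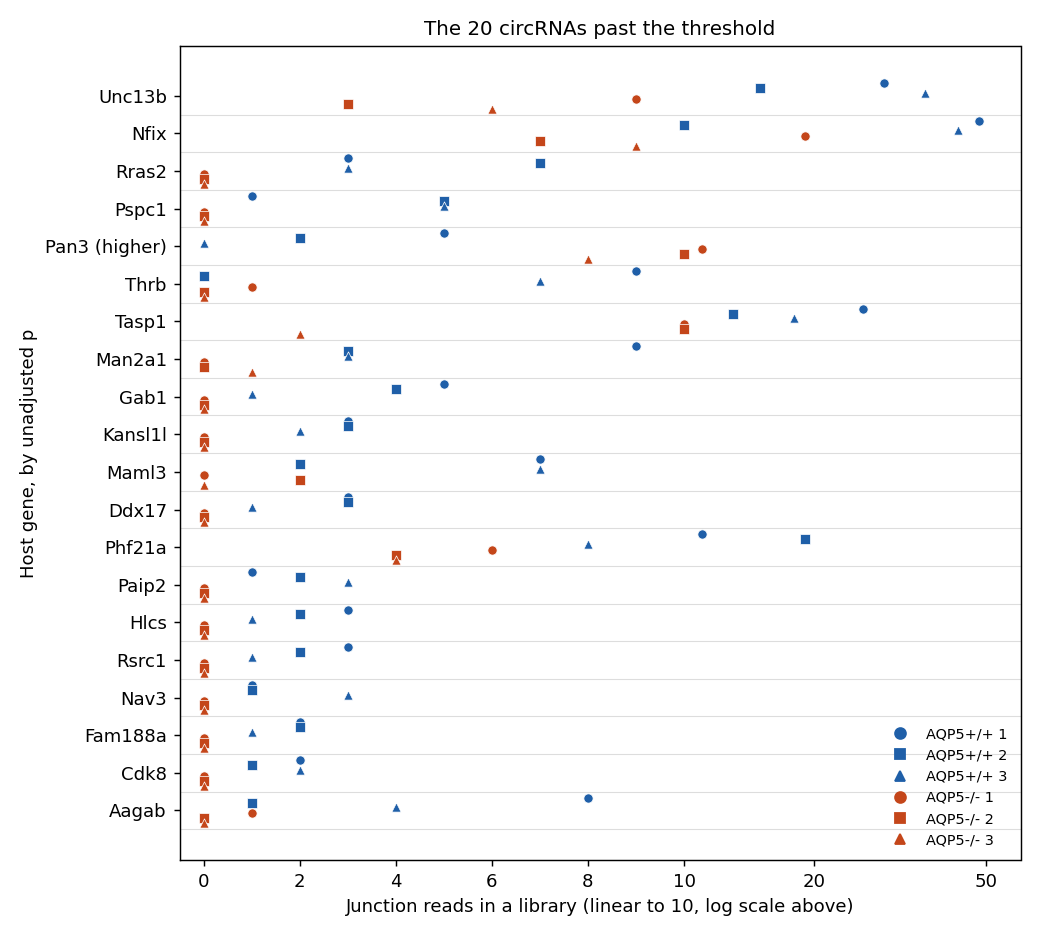
Junction reads in each library for the 20 circBase exonic circRNAs past the threshold, ordered by unadjusted p (reads on an axis linear to 10 and logarithmic above; blue, AQP5+/+; orange, AQP5-/-). In 11 rows all 3 AQP5-/- libraries are at 0, and only Pan3 is higher in AQP5-/-.

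Taken as a share of all junction reads, the circBase circRNAs were at 44.3%, 42.7% and 40.2% in AQP5+/+ and at 37.9%, 34.8% and 36.2% in AQP5-/- libraries. Every AQP5+/+ library, library 2 included, was above every AQP5-/- library. The means were 42.4 ± 2.07% and 36.3 ± 1.52% (SD, n = 3 each), a difference of -6.09 percentage points with an exact permutation p of 0.1 (two-sided), the smallest possible here, and an adjusted p of 0.2 over the 2 comparisons of this kind. Among exonic reads alone the difference was -5.99 points without overlap. Among reads of circRNAs found in at least 3 libraries it was -2.77 points and the groups overlapped (exact permutation p = 0.2). The 12 circles with most reads went from 10.7% to 7.68% of the reads, and the members past the 12th from 31.7% to 28.6% with overlap. Without the 20 calls the share was 36.6% against 34.5% with overlap. Pan3 apart, these calls were picked from the same libraries as lower in AQP5-/-, so leaving them out had to narrow the difference. The number of circRNAs of the set seen in a library was 289, 232 and 233 in AQP5+/+ and 217, 176 and 241 in AQP5-/-, or 251 ± 32.6 against 211 ± 32.9 (exact permutation p = 0.3, n = 3 each). At the depth of the shallowest library the expected numbers were 237 and 203 (exact permutation p = 0.2).

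By the roles of the hosts, 121 circles of 88 genes fell in at least 1 of 8 lists. Of 59 genes with well-studied circles, 16 were hosts with 23 circles, of which 17 were tested, 1 was higher (Pan3) and 2 were lower (Nfix and Paip2), with a median log2 fold change of -0.49 against -0.18 over all circRNAs tested. That list holds Hipk3, a kinase whose circle binds miRNAs in human cells, at 10, 12 and 5 reads against 13, 4 and 3, and Strn3, a striatin, at 2, 3 and 4 against 3, 2 and 3. Both overlapped between the genotypes. Transcription factors and coregulators had 20 circles, 15 tested, with Nfix lower and a median of -0.56. The genes Rere and Ncoa2 of this list each gave circles whose groups overlapped.

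Chromatin regulators had 23 circles, 17 tested, with Phf21a lower and a median of -0.03. Arid1a of the BAF remodelling complex was at 15, 8 and 6 reads against 11, 6 and 4, and the acetyltransferase Kat6b at 10, 10 and 9 against 10, 2 and 5. Vesicle traffic and secretion had 6 circles and 4 tested, with Unc13b lower and a median of -0.37. Of the others, the SNARE Stx6 was at 8, 4 and 1 against 1, 4 and 11 and Ehbp1, an EHD binding protein, at 8, 6 and 2 against 5, 0 and 2, both with overlap. Protein kinases and phosphatases had 21 circles, 15 tested, with Cdk8 lower and a median of 0.03.

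Ubiquitin ligases and deubiquitinases had 14 circles and 8 tested, none past the threshold, with a median of 0.21. The circle of Ube2k, a ubiquitin conjugating enzyme, was at 15, 3 and 5 reads against 12, 18 and 11 (log2 fold change 0.90 ± 0.59, edgeR, adjusted p = 0.961), and that of Rnf169, a ligase of the DNA damage response, at 12, 7 and 6 against 10, 11 and 13. The genotypes overlapped in both. Without AQP5+/+ library 1 the Ube2k circle had a log2 fold change of 1.64 (edgeR, adjusted p = 0.986) and passed the threshold. RNA processing and decay had 12 circles and 9 tested, with Pan3 higher, Ddx17 lower and a median of 0.42. Rbm33 was at 2, 2 and 3 against 3, 7 and 3, and Cnot2 of the CCR4-NOT deadenylase at 5, 0 and 0 against 5, 1 and 0.

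After Tasp1, 4 hosts had 4 circles each, and 3 of them are described here. Nbea, neurobeachin of membrane traffic, had 56 of its 64 reads on 1 circle, at 10, 8 and 12 against 14, 3 and 9. Dtnb had 75 of 109 reads on the circle named above and 26 on another, with 1, 9 and 9 against 6, 0 and 1. That circle's log2 fold change was -1.43, and it passed the threshold without AQP5+/+ library 1 (-1.96) or AQP5-/- library 1 (-3.47). Rere had 31 of 44 reads on a single-block circle, at 3, 10 and 2 against 2, 3 and 11. With all libraries none of these circles passed the threshold.

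The junction reads of a circle were set beside the mRNA level of its host. Of the 353 hosts 351 were matched by symbol, with a median of 10.5 FPKM against 5.55 over all 11772 mRNAs tested. Over 445 circles the Spearman correlation between total reads and host FPKM was 0.158, taken across circles that share libraries. Among the 63 circles with at least 20 reads the median was 2.63 junction reads per FPKM of the host. The highest, picked after their values were seen, were Zfp827 with 20.5, Rasa2 with 19.5, the shorter main Tasp1 circle with 16.2 and Zfp609 with 14.6. The lowest was a 249-nucleotide circle of Kmt2c with 0.651. Hosts were annotated to the nucleus in 46.7% of 351 genes against 36.1% of all mRNAs tested, to zinc ion binding in 13.1% against 6.02% and to the mitochondrion in 5.13% against 11.6%. Hosts of the other exonic circRNAs were at 44.2%, 9.62% and 8.23%, and none of these shares was tested.

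Between the genotypes, 347 host mRNAs were tested with limma on log2(FPKM + 0.5). St3gal5 and Amotl1 were higher in AQP5-/-, where 1.16% of all mRNAs tested were called higher, and none was lower, where 0.883% were. At an adjusted p under 0.05 none passed with limma, and 42 hosts had an unadjusted p under 0.05. The share of all mRNAs at that unadjusted p is not given here, so the 42 are not read as a result about hosts. St3gal5, the ganglioside GM3 synthase, was at 0.552, 5.50 and 0.694 FPKM in AQP5+/+ and 4.90, 5.18 and 5.47 in AQP5-/- libraries. Amotl1, an angiomotin that regulates YAP, was at 2.93, 9.58 and 3.06 against 8.80, 11.8 and 8.75. In both, AQP5+/+ library 2 was at the AQP5-/- level, the same split as the Y-linked mRNAs, and neither is called with a term for them. The log2 fold changes were 1.53 ± 0.60 and 1.03 ± 0.40 (SE; limma, adjusted p = 0.431 for both). Both calls were lost without any single library other than AQP5+/+ library 2. Without that library 12 host mRNAs were lower, and the share over all mRNAs in that fit is not given here. The circBase circles of St3gal5 and Amotl1 had 2 reads each. The median log2 fold change of the hosts was -0.21 against -0.12 over all mRNAs, on the log2(FPKM + 0.5) scale, and 84.7% were below 0 against 67.0%. None of the 20 circles past the threshold had a host past it. Over 255 circles the fold change of the circle and that of the host had a Spearman correlation of 0.068, again a description, since circles of 1 host share its value.

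Some circBase intervals also cover a miRNA gene, 5 of 447 (1.12%) against 8 of 1061 and 5 of 521 in the other exonic classes. Of these, 3 are circles of R3hdm1, whose intervals on chromosome 1 enclose the hairpin of miR-128-1 on the same strand. They are shown with the seed, bases 2 to 8, in capitals, as RefSeq gives them (GRCm38.p6).
mmu-miR-128-1-5p, chr1:128202369-128202389: cGGGGCCGuagcacugucuga
mmu-miR-128-3p, chr1:128202404-128202424: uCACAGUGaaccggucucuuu
These 3 circles had 4, 2 and 2 reads, each in a single library. An interval includes introns that the circle itself may not contain, so no miRNA sequence is assigned to a circle here.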

How the data were processed

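The 6 lacrimal gland libraries, 3 of each genotype, were grouped by the genotype in the sample labels. The circRNA values are raw counts of junction reads per library, deposited by the authors. Trimming was by cutadapt 1.9.3, alignment to mm10 by STAR 2.5.1b and circRNA detection by DCC. Columns normalized with edgeR 3.16.5 and scaled mRNA counts were not used. The mRNA values are FPKM as deposited by the authors. The submitters' processing notes list Cuffdiff 2.2.1, Cufflinks and HISAT2 2.0.4 without roles. The labels name NEBNext kits for ribosomal RNA removal and library preparation and the study's methods name others. The sources used here do not give the use of strand in counting, and reads of near-identical genes or circles that differ only inside cannot be told apart by a junction.

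Computation used R 4.3.3, edgeR 4.0.16 (TMM factors, library size as all junction reads, glmQLFit and glmQLFTest), DESeq2 1.42.0 and limma 3.58.1 (eBayes with trend, mean FPKM 0.5 or more). The tests were run on every circRNA read in 3 or more libraries and on every mRNA above that mean, with Benjamini-Hochberg adjustment, and were tested on simulated data. Depth was 2032 to 2953 junction reads per library, and where a group had no reads its floor was 3 reads in total. Group values were compared with exact permutation tests. Alternatives covered the test, scaling, filter, pseudocount, leaving out libraries, a replicate block and a term for Y-linked mRNA. The TMM factors on reads of tested circRNAs and the Y-linked term for mRNAs were added after seeing the data.

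The text names the 12 members with most reads, up to 12 past the threshold in each direction by p, up to 8 with reads in every library of 1 genotype only, the 4 hosts with most members, the 2 shortest and 2 longest, up to 3 per host list and any past the threshold, and the 2 of smallest change with at least 30 reads; others were named after their values were seen. The members and the 8 host lists, written from general knowledge, were chosen with earlier results of these data known, and 1 of these lists is not reported here. Promoter windows and miRNAs were RefSeq's (GRCm38.p6), and no genome sequence was used here.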

Additional observations from a re-analysis of the deposited data

How the results depend on the processing

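The number of circBase circles called higher was 1 under every alternative except 2 without a filter and 0 to 3 with 1 library left out. The number called lower, 19, was 11 with DESeq2, 10 with exactTest, 11 with at least 10 reads, 4 with a term for Y-linked mRNA and 4 to 15 with 1 library left out, where fewer circles reach 3 libraries. It was 19 to 21 under the other scalings and 15 without a filter. At an adjusted p under 0.05 (edgeR) the count was 1, Unc13b, with DESeq2's size factors, and 0 to 1 with 1 library left out. Of the 17 calls that the naming rules above picked, 11 kept the call with DESeq2. Aagab, Nav3 and Fam188a, named outside those rules, are not in that count. The fit with the Y-linked term sets the AQP5-/- libraries against AQP5+/+ library 2 alone. There Nfix had a log2 fold change of 0.11. Thrb, with 1 AQP5-/- read against 0, had one of 1.89, which is no measure of a fold. Host mRNAs called higher numbered 1 at a pseudocount of 1, 0 without a filter, 0 with the Y-linked term and 0 to 2 with 1 library left out. Those called lower numbered 2 at a pseudocount of 0.1, 1 with the Y-linked term and 0 to 12 with 1 library left out. The difference in reads per circRNA was 1.18 to 1.38 against the earlier lists and 1.35 to 1.60 against the unlisted circRNAs with 1 library left out, where 5 pairs cannot go below an exact p of 0.0625. The difference in share was -7.19 to -5.13 points and that in circRNAs detected -54.8 to -21.2 with 1 library left out. The cause of these changes was not tested.

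No pairing by replicate number was seen: the deviations of same-numbered libraries correlated at -0.01, -0.02 and -0.07. With counts this small, counting error can hide a shared batch, so these values cannot exclude a pairing. With a replicate block 1 circle was higher, 6 were lower and 0 had an adjusted p under 0.05, while 2 host mRNAs were higher and 0 lower. The 3-library filter left 190 of the 447 circles, with 635 reads in all, untested.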
